A study of Tetradesmus deserticola with 10 samples.

Results

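Wet and dry states of Tetradesmus deserticola (Acutodesmus deserticola in the labels), strain Sni-2, a green alga from the desert, were compared. The comparison set the 4 libraries of the stages Hydrated and Rehydrated against the 2 libraries of the stage Dry, 6 of the 10 RNA-seq libraries of the series, across all assembled genes. All samples came from cultures grown for 6 weeks and spotted as drops of 40 µL on cover glass. Hydrated drops were collected at once. Rehydrated drops were collected 1 h after water was added back to dry spots. Dry spots were fully flattened and were kept 11 h longer in the chamber, so that they were collected about 24 h after the start. The 2 Early libraries (2.5 h, 25% of the volume lost) and the 2 Late libraries (7.5 h, 60% of the volume lost) took no part in choosing the genes, other than in the filter, the scaling and the estimate of the spread, and were used to place the drying course between the wet and dry levels.

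Few plants survive drying to air dryness as vegetative cells, and green algae of desert crusts are among the organisms that do. In such organisms, water loss stops photosynthesis and most metabolism, and proteins and sugars that protect membranes and other proteins are known to accumulate before or during dryness. Water uptake restarts respiration and repair. A gene was taken to follow water status when it differed from Dry in the same direction in both Hydrated and Rehydrated. A transcript that moved in a single direction with the hours of the experiment would lie on opposite sides of Dry before and after it.

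The libraries held between 644705 counts (Rehydrated replicate 1) and 1917825 counts (Hydrated replicate 1), and both Rehydrated libraries were shallower than all others. Of 20783 assembled genes, 9856 had enough counts to be tested, and they held 98.3% of all counts. The identifiers pair with no gene name, so genes are given by assembly identifier, without function or position. Levels are CPM, counts relative to library size after TMM scaling between libraries, and fold changes are on the log2 scale, wet over Dry, so that positive values mean higher in wet cells. A count of 3, the least taken as a measurable level, stood for 4.41 and 4.70 CPM in the Dry libraries and for 1.07 to 2.99 CPM in the others. In bulk RNA, fewer transcripts per cell and fewer cells or less total RNA per drop cannot be told apart. The samples hold no drops that stayed wet over the same hours.

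In 1538 genes, 15.6% of those tested, both wet stages differed from Dry in the same direction. Of these, 501 genes (5.08% of those tested) were higher in both wet stages and are called wet-high genes here, and 1037 (10.5%) were lower in both wet stages and are called dry-high genes. In 48 genes (0.487%) Hydrated and Rehydrated lay on opposite sides of Dry, each at an adjusted p under 0.05. Taken by itself, Hydrated was higher than Dry in 24.1% and lower in 20.4% of the genes tested (44.6% in either direction), and Rehydrated was higher in 7.23% and lower in 13.5% (20.7% in either direction). Both contrasts use the same Dry libraries, so the number of genes in both is given as a count only. All calls are at an adjusted p of 0.05 in edgeR's quasi-likelihood test with Benjamini-Hochberg adjustment. The number of wet-high genes was 183 without Dry replicate 1, 173 without Dry replicate 2, 330 without Hydrated replicate 2 and 288 without Rehydrated replicate 2, and the number of dry-high genes was 585 without Dry replicate 1. The opposite-sided genes numbered 23 without Dry replicate 1, 27 without Dry replicate 2 and 76 without Rehydrated replicate 2.

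**Figure D1:**
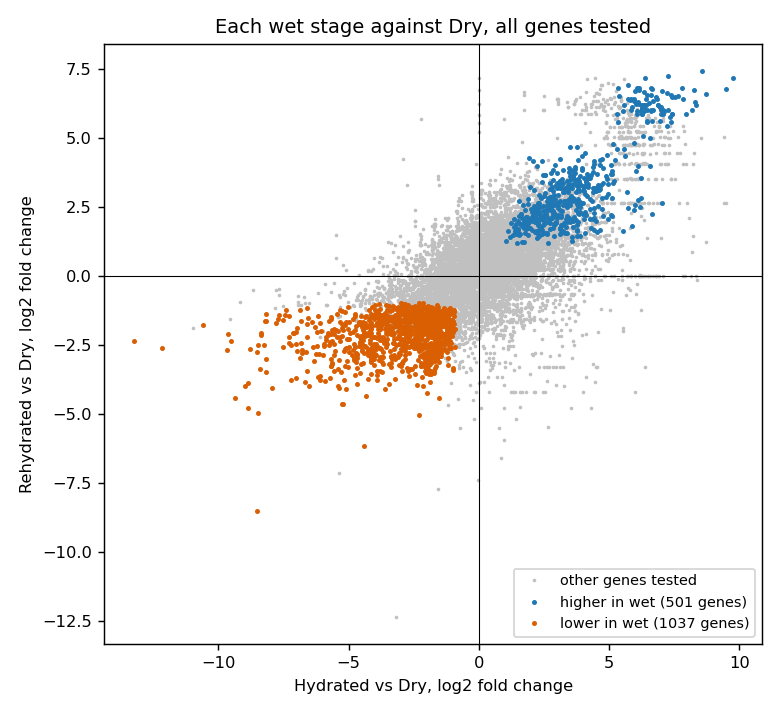
Log2 fold changes of Hydrated over Dry (horizontal axis) and of Rehydrated over Dry (vertical axis) for the 9856 genes tested, with the 501 wet-high genes in blue at the upper right and the 1037 dry-high genes in orange at the lower left. Both axes use the same Dry libraries, and the blue points set apart at the upper right are mostly genes with 0 counts in Dry, for which the fitted value depends on the model's prior count.

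The balance between the directions rested on how libraries were scaled, and on the filter and the test as well. With TMM, 32.6% of the 1538 genes were wet-high; with DESeq2 size factors the counts were 443 wet-high and 1082 dry-high, and with upper-quartile factors 620 and 945. With library totals alone they were 4139 and 96, so that 97.7% were wet-high. TMM with only genes averaging at least 50 counts gave 408 wet-high and 268 dry-high genes. Limma on the deposited TMM signal gave 1047 and 617 with 1 added, and 904 and 522 with 0.1 added. DESeq2's Wald test gave 220 and 947. The median gene of all tested stood 0.49 higher in wet than in Dry cells under TMM and 2.29 higher under library totals (log2). No gene called in both wet stages was called in the opposite direction in both under another scaling. The direction itself did turn, however: under library totals 244 of the 1037 dry-high genes lay higher in Hydrated than in Dry and 401 lay higher in Rehydrated than in Dry, with none of these called, while no wet-high gene turned in either contrast. Measured from the median of all genes under TMM, 476 wet-high and 1037 dry-high genes lay at least 1 log2 unit beyond it in both wet stages. For dry-high genes the calls had fixed this result. Their smallest changes were -0.90 in Hydrated and -0.98 in Rehydrated, where the medians of all genes were 0.52 and 0.45. Under all 4 scalings, 443 genes were wet-high and 96 were dry-high, and results are also given for these.

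**Figure D2:**
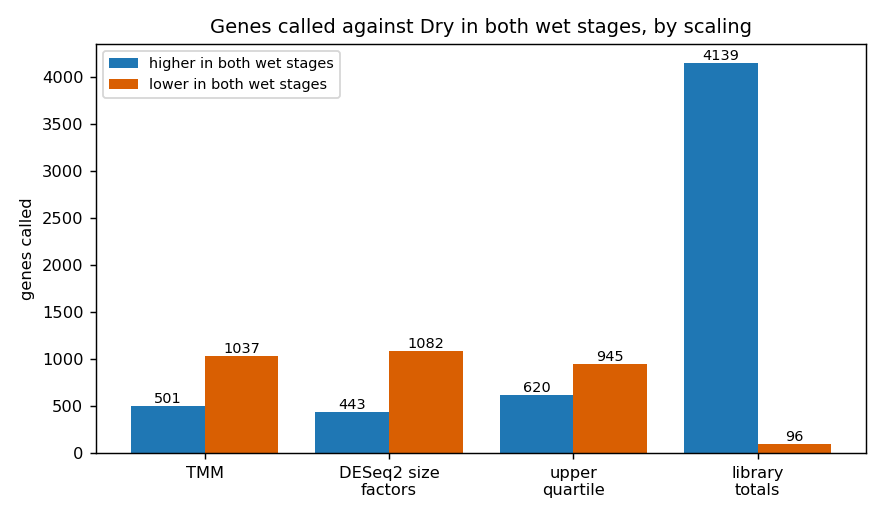
Number of genes called higher (blue) and lower (orange) in both wet stages than in Dry under each of 4 scalings of the same counts. Wet-high genes numbered between 443 and 620 under the 3 scalings that correct for composition and 4139 under library totals, where dry-high genes numbered 96.

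A single test of the mean of the wet stages against Dry called more genes, 1548 higher (15.7% of those tested) and 1899 lower (19.3%), or 35.0% in either direction. All 501 wet-high and all 1037 dry-high genes were among them. Of the remaining 1047 higher genes, 933 differed from Dry in Hydrated only and 89 in Rehydrated only. Of the remaining 862 lower genes, 684 differed in Hydrated only and 158 in Rehydrated only. With library totals the single test called 6308 genes higher and 416 lower. Without Dry replicate 1 it called 759 higher and 1253 lower, and without Dry replicate 2 802 higher.

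Wet-high genes had few counts in Dry. Their median level was 22.6 and 21.0 CPM in the Hydrated libraries and 14.3 and 16.0 CPM in the Rehydrated libraries, against 1.47 and 1.57 CPM, the worth of 1 count, in the Dry libraries. In 86 of them no read was counted in either Dry library, and 268 of the 501 (53.5%) had under 3 counts in each, against 27.2% of all genes tested. Dry-high genes had medians of 22.2 and 22.8 CPM in Hydrated and of 37.8 and 53.9 CPM in Rehydrated, against 179 and 177 CPM in Dry. The median dry-high gene thus stayed above its Hydrated level after 1 h of rewetting, while the median wet-high gene stayed below it. The CPM of the 4 wet libraries and of the 2 Dry libraries did not overlap in any of the 501 wet-high genes and in 1036 of the 1037 dry-high genes, as in 43.8% of all genes tested; the same libraries chose the genes, so these counts describe the lists.

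The median log2 fold change of the wet-high genes was 3.48 in Hydrated vs Dry and 2.76 in Rehydrated vs Dry, or 2.85 and 2.24 with genes at 0 in a stage set to their bound at 3 counts per library. Over all genes tested these medians were 0.52 and 0.45. Of the 415 wet-high genes with a count in Dry, 290 were at least 4-fold and 16 at least 16-fold higher in each wet stage. For the dry-high genes the medians were -2.59 in Hydrated vs Dry and -2.05 in Rehydrated vs Dry, and 369 were at least 4-fold lower in each wet stage. The 96 dry-high genes that held under all 4 scalings had medians of -4.79 and -3.20. Under library totals the median gene stood higher in wet cells, so only large decreases could be called. These larger medians thus follow from how the 96 were chosen.

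The wet-high genes with the largest change in both wet stages had no counts in the Dry libraries. TRINITY_DN184245_c7_g1 was at 69.1 and 79.6 CPM in Hydrated and at 19.3 and 4.99 CPM in Rehydrated, against 0 counts in both Dry libraries. Its Early libraries held 31.0 and 50.2 CPM and its Late libraries 22.4 and 14.1 CPM, so every library after Hydrated lay below both Hydrated ones, although Early was not called against Hydrated (adjusted p = 0.203). It was at least 16.3-fold higher in Hydrated than in Dry and at least 2.67-fold higher in Rehydrated (57.4-fold and 11.2-fold with library totals), with an adjusted p of 2.73e-05 for the wet stages together. The Rehydrated level rested on 23 counts in replicate 1 and 5 in replicate 2; without Rehydrated replicate 1 the fitted log2 fold change was 7.83, against 8.46 with all libraries.

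TRINITY_DN149146_c0_g1 was at 81.6 and 43.3 CPM in Hydrated and at 10.9 and 7.99 CPM in Rehydrated, again against 0 counts in both Dry libraries. It stayed at 38.6 and 52.4 CPM in Early and at 49.6 and 43.1 CPM in Late, within the range of its Hydrated libraries or just under it. It was at least 13.7-fold higher in Hydrated and at least 2.07-fold higher in Rehydrated than in Dry (47.7-fold and 7.95-fold with library totals; adjusted p = 2.2e-05 for the wet stages together). Expected counts of this gene were fractions in 7 libraries, which happens where reads map to more than 1 assembled gene. Both genes held under all 4 scalings.

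The dry-high genes with the largest change in both wet stages peaked in Dry and nowhere else. TRINITY_DN175670_c2_g6 was at 0 and 0.931 CPM in Hydrated and at 16.8 and 14.0 CPM in Rehydrated, against 234 and 426 CPM in Dry. The wet stages over Dry came to -6.89 on the log2 scale (SE 0.458, adjusted p = 8.13e-10), with -5.06 under library totals and -8.16 without Hydrated replicate 2. Early held 3.05 and 5.24 CPM and Late 0 and 2.12 CPM, so nearly all of the rise lay between Late and Dry. The Hydrated libraries held 2 counts together, a ratio of Dry to Hydrated of 808 (exact 95% Poisson interval 222 to 6691). Expected counts were fractions in 8 libraries, and 6 further genes of the same assembly cluster were tested, so reads may be split among them.

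TRINITY_DN173955_c4_g2 was at 12.2 and 8.85 CPM in Hydrated and at 2.52 and 19.0 CPM in Rehydrated, against 154 and 274 CPM in Dry. Its Rehydrated libraries lay on both sides of its Hydrated ones: the log2 fold change was -4.33 for Hydrated vs Dry and -4.36 for Rehydrated vs Dry, and between Rehydrated and Hydrated it was -0.03 (SE 0.575, adjusted p = 0.97). The wet stages together differed from Dry by -4.34 on the log2 scale (SE 0.407, adjusted p = 2.29e-08), -2.55 with library totals and -5.41 without Rehydrated replicate 2. Early held 25.9 and 29.2 CPM and Late 31.2 and 45.2 CPM, which lay between Hydrated and Dry.

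**Figure D3:**
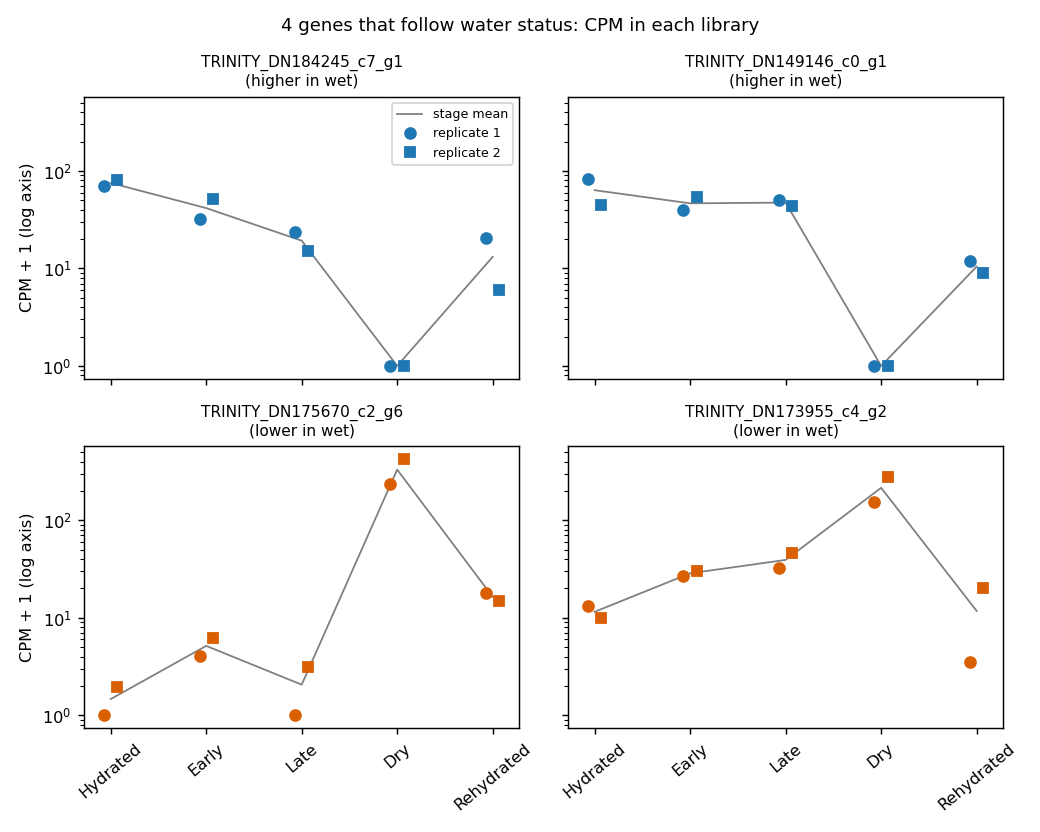
CPM plus 1 on a log axis in each library of the 5 stages, in the order of the course, for the 2 wet-high genes (blue) and the 2 dry-high genes (orange) with the largest change in both wet stages. Circles are replicate 1, squares replicate 2 and the line joins stage means; the wet-high genes are at 0 counts in Dry, and the dry-high genes have their highest libraries there.

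The share of each library taken by the lists rests on library totals and uses no scaling factor between libraries. Wet-high genes took 3.94% and 3.80% of the counts in Hydrated and 2.02% and 1.86% in Rehydrated, against 0.133% and 0.0921% in Dry. Their share was 2.17% ± 0.382 (SD, n = 2) in Early and 1.56% ± 0.396 in Late, below Hydrated and well above Dry. Dry-high genes took 37.2% and 38.3% of the counts in Hydrated and 33.5% and 40.1% in Rehydrated, against 70.1% and 69.1% in Dry. For these the Early share was 40.7% ± 6.29 and the Late share 49.8% ± 4.53, with both Late libraries (46.6% and 53.0%) above the wet libraries and below the Dry ones. On library totals, the median dry-high gene was at 84.55 and 71.43 CPM in Dry and at 75.07 and 67.04 CPM in Rehydrated. In Hydrated it was at 32.95 and 36.03 CPM. No test was made of the shares, since the Hydrated, Rehydrated and Dry libraries chose the genes.

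The 96 dry-high genes that held under all 4 scalings took 2.39% ± 0.297 of the counts in Hydrated and 8.14% ± 1.15 in Rehydrated, against 23.3% ± 0.849 in Dry. In Early they took 1.62% ± 0.445 and in Late 1.96% ± 0.191, no more than in Hydrated. A share is dominated by the most abundant genes. Gene by gene, the median level of these 96 was 26.3 and 29.1 CPM in Hydrated, 32.3 and 30.0 CPM in Early, 49.6 and 49.1 CPM in Late, 614 and 673 CPM in Dry, and 48.7 and 102 CPM in Rehydrated. The median log2 fold change of Late over Hydrated was 0.96, and that of Late over Dry was -4.06.

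**Figure D4:**
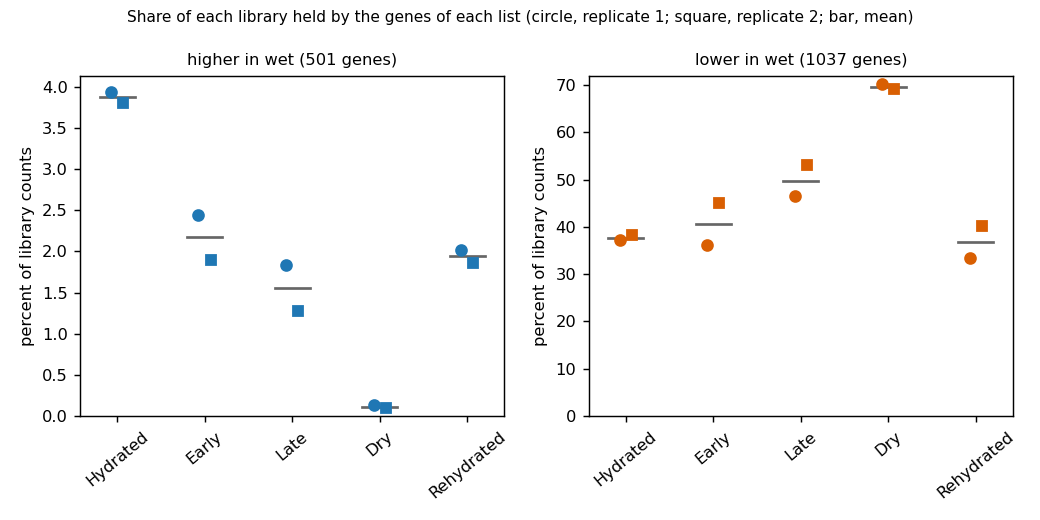
Percent of all counts of a library that belong to the wet-high genes (left, blue) and to the dry-high genes (right, orange), by stage in the order of the course. Circles are replicate 1, squares replicate 2 and bars the mean; wet-high genes hold 0.113% on average in Dry and 1.94% in Rehydrated, and dry-high genes hold 69.6% in Dry and 36.8% in Rehydrated.

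The wet stages were then set against each other within the lists, which asks how far 1 h of water brought these genes back. Among the wet-high genes, Rehydrated was lower than Hydrated in 134 (26.7%), which had come back in part, higher in 10, and not called in 357. Over all genes tested Rehydrated was lower in 17.7% and higher in 15.9%. Among the dry-high genes, Rehydrated was higher than Hydrated in 407 (39.2%), lower in 60, and not called in 570. Under TMM the 407 had come down in part from Dry. In all, 541 genes had stopped short of the Hydrated level and 70 had gone beyond it. With only genes averaging at least 50 counts, Rehydrated was lower than Hydrated in 259 of 408 wet-high genes and higher in 12. Of these 408 genes, 142 were also wet-high under the main filter. Among the 268 dry-high genes called with that stricter filter, Rehydrated was higher in 144 and lower in 37. Under library totals 401 of the 1037 dry-high genes lay higher in Rehydrated than in Dry, with none of these called. Of the 96 genes called dry-high under that scaling, Rehydrated was higher than Hydrated in 56 and lower in 0. A gene that was not called was not shown to have returned, and 1 h after rewetting the libraries were the shallowest. Within the lists, the 134 wet-high genes below Hydrated numbered 56 to 86 without any single Hydrated, Dry or Rehydrated library, the 407 dry-high genes above it 217 without Hydrated replicate 1 and 215 without Dry replicate 1, and the 60 dry-high genes below it 181 without Rehydrated replicate 2 and 7 to 32 without any other single library of the 3 stages. Genes short of the Hydrated level in all numbered 288 without Hydrated replicate 1, 274 without Dry replicate 1, 352 without Dry replicate 2, 353 without Rehydrated replicate 1 and 345 without Rehydrated replicate 2. Genes beyond it numbered 11 and 12 without Hydrated replicate 2 and replicate 1, 34 and 31 without Dry replicate 1 and replicate 2, 38 without Rehydrated replicate 1, and 185 without Rehydrated replicate 2.

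The largest excess of Rehydrated over Hydrated was in dry-high genes that were nearly absent before drying. TRINITY_DN187552_c0_g1 was at 133 and 192 CPM in Rehydrated, against 0 counts in both Hydrated libraries, a rise of at least 131-fold by TMM (adjusted p = 1.66e-08) and of at least 132-fold by library totals. It had reached 812 and 859 CPM in Dry, from which Rehydrated differed by -2.37 on the log2 scale (SE 0.429, adjusted p = 0.000427), and it was already counted in Early, at 2.03 and 5.24 CPM, and in Late, at 8.01 and 15.5 CPM. TRINITY_DN171044_c0_g1 was at 1427 and 1499 CPM in Rehydrated, against 1.07 and 2.79 CPM in Hydrated, or 9.55 on the log2 scale (SE 0.684, adjusted p = 4.75e-09) and 8.78 without Hydrated replicate 1. Early held 1.53 and 3.75 CPM of this transcript, Late 5.60 and 9.18 CPM and Dry 9349 and 8604 CPM. Under TMM both genes had moved toward the Hydrated level after rewetting. On the log2 scale they kept most of their distance from that level, which rests on few or 0 counts in Hydrated. In CPM they had lost most of that distance. Under library totals neither was called lower in Rehydrated than in Dry, at -0.54 (SE 0.391, adjusted p = 0.225) and -0.74 (SE 0.376, adjusted p = 0.0857) on the log2 scale.

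The largest deficits were in wet-high genes. TRINITY_DN185278_c8_g1 was at 44.5 and 137 CPM in Rehydrated, against 1758 and 2013 CPM in Hydrated, a difference of -4.38 on the log2 scale (SE 0.522, adjusted p = 1.37e-06). The value was -3.80 without Rehydrated replicate 1 and -5.63 without Rehydrated replicate 2. Its Dry libraries held 22.1 and 15.7 CPM, its Early libraries 312 and 378 CPM and its Late libraries 742 and 659 CPM, so that both Early libraries lay below both Late ones and the Dry libraries lowest. TRINITY_DN184657_c4_g1 was at 19.3 and 20.0 CPM in Rehydrated, against 434 and 382 CPM in Hydrated, or -4.37 on the log2 scale (SE 0.443, adjusted p = 2.26e-07). It held 2.94 and 3.14 CPM in Dry, from 2 counts in each library, with 782 and 760 CPM in Early and 474 and 454 CPM in Late, where it was not called different from Hydrated (log2 fold change 0.19, SE 0.37, adjusted p = 0.803).

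Late desiccation lay on the wet side for most of these genes. A gene was placed on the wet side when Late differed from Dry in the wet direction and was not called toward Dry against Hydrated, on the Dry side in the opposite case, and between when both were called. Of the 1538 genes, 980 lay on the wet side, 128 on the Dry side and 151 between, and 279 had neither call. Among the wet-high genes 340 (67.9%) lay on the wet side, 51 (10.2%) on the Dry side, 36 between and 74 had neither call. Among the dry-high genes the numbers were 640 (61.7%), 77 (7.43%), 115 and 205. For genes called under all 4 scalings, 303 wet-high genes lay on the wet side, 45 on the Dry side and 32 between, and 68 of the 96 dry-high genes lay on the wet side and 25 between. With only genes averaging at least 50 counts, 211 of 408 wet-high genes lay on the wet side, 39 on the Dry side and 132 between. Of the 268 dry-high genes of that filter, 170 lay on the wet side, 11 on the Dry side and 35 between.

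Late was higher than Dry in 376 of the 501 wet-high genes and lower than Dry in 755 of the 1037 dry-high genes (72.8%); over all genes tested Late was higher than Dry in 19.6% and lower in 17.2%. Late was lower than Hydrated in 87 wet-high genes (17.4%) and higher than Hydrated in 192 dry-high genes (18.5%), against 6.36% and 4.98% over all genes tested. The lists were chosen on the same Dry and Hydrated libraries, so these shares describe the genes and are no test of them. With library totals 2267 genes lay on the wet side, 478 on the Dry side and 382 between, and 276 of the 1037 dry-high genes lay higher in Late than in Dry, 24 of them called. The counts depended on single libraries. Genes on the wet side numbered 511 without Dry replicate 1; wet-high genes there numbered 124, 118 and 191 without Dry replicate 1, Dry replicate 2 and Rehydrated replicate 2, and dry-high genes 387 without Dry replicate 1. Genes on the Dry side numbered 63 without either Hydrated replicate, 84 and 76 without Late replicate 1 and replicate 2, 60 and 72 without Dry replicate 1 and replicate 2, and 210 without Rehydrated replicate 2. Of these the wet-high genes numbered 20 to 31 without any single Hydrated, Late or Dry library, and the dry-high genes 171 without Rehydrated replicate 2 and 32 to 49 without either Hydrated or Dry library or Late replicate 2. Genes between numbered 54 and 72 without Hydrated replicate 1 and replicate 2, 49 and 51 without Late replicate 1 and replicate 2, and 80 and 82 without Dry replicate 1 and replicate 2. Genes with neither call numbered 182 and 181 without Hydrated replicate 1 and replicate 2, 117 and 128 without Dry replicate 1 and replicate 2, and 143 and 183 without Rehydrated replicate 1 and replicate 2.

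The position of Late was also measured gene by gene on the log2 line from Dry, set to 0, to Hydrated, set to 1. The median wet-high gene lay at 0.861 and 0.876 in the Late libraries and at 0.915 and 0.936 in the Early libraries. For dry-high genes the medians were 0.782 and 0.757 in Late and 0.906 and 0.910 in Early. Late lay nearer to Hydrated than to Dry in 420 of 501 wet-high genes (83.8%) and in 765 of 1037 dry-high genes (73.8%). The distribution was wide, with 147 wet-high and 263 dry-high genes beyond the Hydrated level, away from Dry. The median log2 fold change of Late over Hydrated was -0.38 in wet-high genes, 0.71 in dry-high genes and -0.08 over all genes tested. Positions were measured for the listed genes only. The Dry and Hydrated libraries that set the line also chose these genes, so the shares describe the lists. With library totals the mean of the library medians was 0.723 for wet-high and 1.04 for dry-high genes, against 0.869 and 0.770 under TMM. The dry-high value came from medians of 0.950 and 1.13 in the Late libraries. Under library totals 244 of the 1037 dry-high genes lay higher in Hydrated than in Dry, so for these the line was reversed in any stage placed on it. Late lay below 0 in 184 and above 1 in 552 of the 1037 genes, which limits what such a median says. Rehydrated lay at means of 0.836 for wet-high and 0.762 for dry-high genes under TMM, and at 0.887 and 0.0884 under library totals, where the median dry-high gene had stayed near its Dry level.

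**Figure D5:**
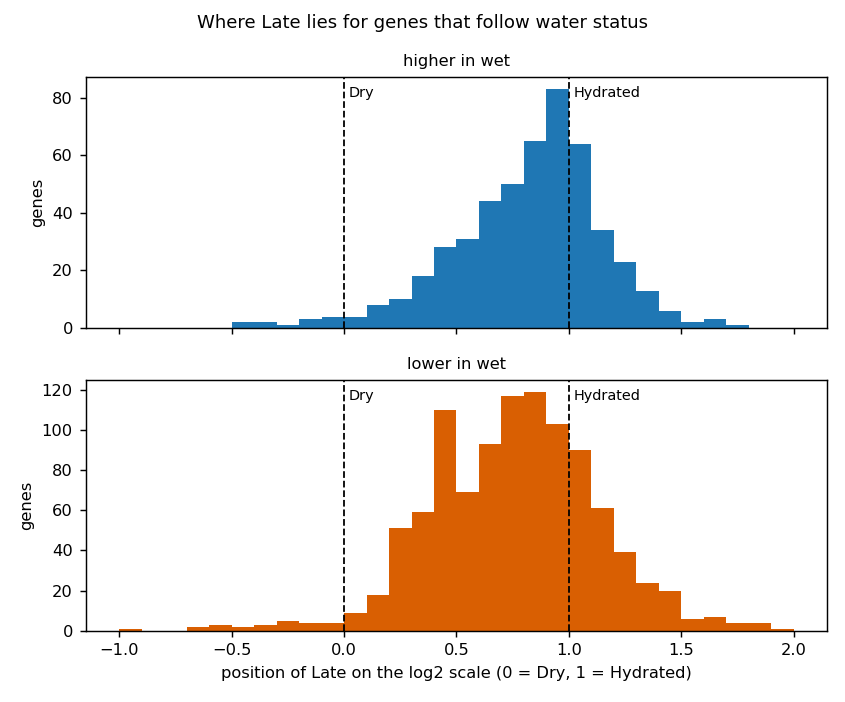
Number of genes by the position of Late on the log2 line from the Dry mean (0) to the Hydrated mean (1), for the wet-high (top) and dry-high (bottom) genes. Most genes lie nearer to 1 than to 0, at 83.8% of wet-high and 73.8% of dry-high genes. The Dry and Hydrated libraries that set the line also chose the genes. Outside the range drawn lie 2 wet-high and 9 dry-high genes.

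For genes on the Dry side, Late was called away from Hydrated by 7.5 h and was not called on the wet side of Dry. TRINITY_DN181130_c3_g2, a wet-high gene, was at 2.40 and 2.12 CPM in Late, against 125 and 107 CPM in Hydrated, a log2 difference of -5.63 (SE 0.521, adjusted p = 6.01e-07). Early held 27.5 and 10.5 CPM, Dry 1.47 and 1.57 CPM and Rehydrated 10.9 and 6.99 CPM, so Late already lay close to Dry, from which it was not called different (adjusted p = 0.722). Rehydrated over Dry was 2.51 on the log2 scale (SE 0.881, adjusted p = 0.0467), with 2 counts in the Dry libraries together. TRINITY_DN176576_c1_g1, also wet-high, was at 3.20 and 0.706 CPM in Late, against 70.5 and 57.7 CPM in Hydrated, a log2 difference of -5.03 (SE 0.555, adjusted p = 3.1e-06). In Early it was still at 58.5 and 44.2 CPM, so most of its difference arose between 2.5 h and 7.5 h. Dry held 0 and 1.57 CPM and Rehydrated 13.4 and 5.99 CPM. Its fold change was -6.40 without Late replicate 1 and -4.30 without Late replicate 2, and limma, run on the deposited signal with 0.1 added, gave an adjusted p of 0.0596.

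Both named dry-high genes on this side peaked in Late rather than in Dry. TRINITY_DN177025_c2_g1 was at 2227 and 4520 CPM in Late, against 290 and 163 CPM in Hydrated, a log2 difference of 3.90 (SE 0.572, adjusted p = 7.94e-05), or 3.28 without Late replicate 2. Dry held 673 and 1030 CPM, below both Late libraries (log2 fold change of Late over Dry 1.99, SE 0.529, adjusted p = 0.00501), and Rehydrated held 90.7 and 211 CPM. In Early it was already at 1092 and 2278 CPM, above both Dry libraries. TRINITY_DN172170_c3_g1 was at 321 and 365 CPM in Late, against 48.0 and 33.1 CPM in Hydrated (log2 fold change 3.08, SE 0.438, adjusted p = 5.79e-05). Early held 135 and 129 CPM of it, Dry 135 and 152 CPM and Rehydrated 31.1 and 79.9 CPM. For both genes the wet stages were lower than Dry (log2 fold change -2.21, SE 0.428, adjusted p = 0.000312, and -1.60, SE 0.354, adjusted p = 0.00113) under TMM. Under library totals neither was called, at -0.41 (SE 0.329, adjusted p = 0.265) for TRINITY_DN177025_c2_g1 and, with the direction turned, at 0.18 (SE 0.357, adjusted p = 0.663) for TRINITY_DN172170_c3_g1.

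For genes on the wet side, Late still differed from Dry after 7.5 h. TRINITY_DN173691_c7_g2, wet-high, was at 131 and 148 CPM in Late, against 1.47 and 0 CPM in Dry, where the libraries held 1 count together, a ratio of 185 with an exact 95% Poisson interval of 33.0 to 7326. The adjusted p was 5.35e-08. The fitted log2 fold change of 7.37 became 6.56 without Dry replicate 2. Without Dry replicate 1, where the remaining Dry library has 0 counts, it was 10.72. Its Hydrated libraries held 75.6 and 56.8 CPM, its Early libraries 128 and 163 CPM and its Rehydrated libraries 31.1 and 25.0 CPM, so it stood higher in both drying stages than in Hydrated, although neither Early (adjusted p = 0.0704) nor Late (adjusted p = 0.0552) passed the test against Hydrated. TRINITY_DN149146_c0_g1, described above, was the other, at least 10.2-fold higher in Late than in Dry by TMM and at least 21.8-fold by library totals (adjusted p = 2.08e-06).

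The 2 named dry-high genes on the wet side had almost no reads in Late. TRINITY_DN175670_c2_g2 was not counted in either Late library, against 256 and 285 CPM in Dry. By TMM it was at least 119.7-fold lower in Late (adjusted p = 5.76e-09), and by library totals at least 55.8-fold. Hydrated held 1.79 and 3.73 CPM, Early 3.56 and 4.49 CPM and Rehydrated 83.9 and 157 CPM, so after 1 h this transcript was still far above its Hydrated level. Rehydrated over Dry was -1.17 on the log2 scale under TMM (SE 0.381, adjusted p = 0.033), and the direction turned under library totals, at 0.62 (SE 0.399, adjusted p = 0.173), where the gene was not called lower in both wet stages. It had fractional counts in 8 libraries and shares its assembly cluster with TRINITY_DN175670_c2_g6. TRINITY_DN177519_c1_g2 was at 0.801 and 0 CPM in Late, against 1111 and 861 CPM in Dry, and 397 and 348 CPM in Rehydrated. Rehydrated over Dry was -1.40 on the log2 scale under TMM (SE 0.411, adjusted p = 0.0177) and turned to 0.49 under library totals (SE 0.443, adjusted p = 0.33), so this call in both wet stages was lost there too. Its Hydrated libraries held 4.30 and 6.98 CPM and its Early libraries 10.2 and 5.99 CPM. The Late libraries held 1 count together, a ratio of Dry to Late of 2638 with an exact 95% Poisson interval of 473 to 104300 (adjusted p = 2.16e-09). The fitted log2 fold change of -11.06 was -13.36 without Late replicate 1 and -10.09 without Late replicate 2. Each of these genes was lower in Late than in Hydrated (adjusted p = 0.028 and 0.0115), having 13 and 27 counts in the Hydrated libraries together. For TRINITY_DN175670_c2_g2 the counts bound this drop only at 1.22-fold or more by TMM and 2.02-fold or more by library totals. For TRINITY_DN177519_c1_g2 the ratio of Hydrated to Late by TMM was 14.6 (exact 95% Poisson interval 2.40 to 596).

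The lists also differed in signal, length and shared reads. The signal comes from the same reads that chose the genes, so it describes the lists and tests nothing. On the deposited signal, which is corrected for gene length, the median dry-high gene had a mean over all libraries of 58.6, the median wet-high gene 13.0 and the median of all genes tested 10.2. Of the 100 genes with the highest mean signal, 69 were dry-high and none was wet-high; 12 of them were among the 96 dry-high genes that held under all 4 scalings. By signal in the wet libraries alone 57 of the highest 100 were dry-high, and by signal in the Dry libraries alone 72 were. Effective length was estimated from counts over deposited signal and is relative, not a measured length. Relative to the median gene tested, the median estimate was 1.17 for wet-high and 0.987 for dry-high genes. Fractional expected counts occurred in 8.58% of wet-high and 21.1% of dry-high genes, against 15.0% of all genes tested. In 119 assembly clusters there were at least 2 listed genes, and in 16 of these both directions occurred. Level bears on which changes could be called, and its part in these differences was not tested.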

How the data were processed

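Per the labels, RNA was sequenced after removal of ribosomal RNA, 2 libraries for each of 5 stages. For each assembled gene the authors deposited raw expected counts and, apart from these, an expression signal normalized with TMM, per the file headers and names. RSEM 1.2.28, Bowtie2 2.2, Trimmomatic 0.35, CASAVA 1.4 and DESeq2 are named in the submitters' processing notes, without a role; the gene identifiers look like those of Trinity, an assembler, and no label or header states the assembly steps. Columns were matched to samples by the replicate number and time code of the titles. Whether a stage's libraries came from separate cultures is not in the labels, so p-values measure only how far these libraries spread, which may be technical. Libraries of a stage differed by more than sampling noise (chi-square per degree of freedom 10.9 to 42.0).

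Expected counts were rounded, filtered with filterByExpr (minimum count 10), scaled with TMM factors (0.403 to 1.99) and tested with edgeR 4.0.16 (R 4.3.3) in one fit of all 10 libraries with a term per stage, with 5 residual degrees of freedom. The test was checked on simulated data in which equal numbers of genes rose and fell. That check cannot tell which scaling is right. The standard error is the fold change divided by the root of F. With 4 against 2 libraries there are 15 splits, and an exact permutation p doubled from 1 side is at least 0.133, so no such test was made. Poisson intervals and limits at 3 counts per library cover counting error only. Positions used log2 CPM with a prior count of 2. Alternatives were 3 other scalings, 2 other filters, DESeq2 1.42.0, limma 3.58.1 on log2 of the signal plus 1 or 0.1, fewer stages, a replicate block, single libraries other than Early left out, whole counts only and a 2-fold minimum.

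Genes and lists were chosen with earlier results of these data known. Named genes follow water status, average 50 or more counts in the 6 libraries and do not overlap between the groups; at most 2 per direction were taken, by the smaller of their changes in the wet stages, by the change of Late, or by Rehydrated against Hydrated.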

Additional observations from a re-analysis of the deposited data

How the results depend on the processing

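Leaving out each library in turn gave 759 to 1634 genes higher and 1253 to 2082 lower in wet vs Dry, 173 to 415 wet-high genes, 585 to 1197 dry-high genes, and 23 to 76 genes on opposite sides of Dry. Genes in which Rehydrated stopped short of Hydrated numbered 274 to 465, and those beyond it 11 to 185. Late lay on the wet side in 511 to 906 genes, on the Dry side in 60 to 210 and between in 49 to 193, with neither call in 117 to 412. Early libraries were not among those left out in turn, so these ranges cover Hydrated, Late, Dry and Rehydrated libraries only. Library totals gave 6308 and 416 in wet vs Dry, 4139 wet-high, 96 dry-high and 98 opposite-sided genes, and 2267, 478, 382 and 1108 genes with Late on the wet side, on the Dry side, between and with neither call. A mean of at least 50 counts, which leaves fewer genes, gave 700 and 580 in wet vs Dry. Wet-high and dry-high genes then numbered 408 and 268. Late lay on the wet side in 381 of these genes and on the Dry side in 50, with neither call in 78. DESeq2's Wald test gave 891 higher in wet vs Dry, with 220 wet-high and 947 dry-high genes. Limma on the deposited signal gave 3019 higher in wet vs Dry, 1047 wet-high and 617 dry-high genes with 1 added, and 2590, 904 and 522 with 0.1 added. Late on the Dry side and between then numbered 71 and 65, or 32 and 41, and with 0.1 added 272 genes stopped short and 27 went beyond. Whole-number counts only left 31 opposite-sided genes. Of the genes called under all 4 scalings, Late lay on the wet side in 371, on the Dry side in 47 and between in 57, with neither call in 64. Those genes held 3.54% of the counts in Hydrated and 1.76% in Rehydrated where wet-high, and 2.39%, 1.62%, 1.96%, 23.3% and 8.14% from Hydrated through Early, Late and Dry to Rehydrated where dry-high. The causes of these shifts were not tested. No call in both wet stages was called the opposite way in both under any fit, although under library totals 244 and 401 dry-high genes turned direction, uncalled, in Hydrated and in Rehydrated over Dry. Correlations of replicate differences between stages ran from -0.0815 (Hydrated and Rehydrated) to 0.149 (Late and Dry), with 0.135 for Late and Rehydrated, 0.0736 for Hydrated and Dry and 0.00792 for Dry and Rehydrated. With 2 numbers per stage and no label that ties them, the replicates were taken to share only a number; a replicate block gave 514 wet-high and 1115 dry-high genes and 132 beyond Hydrated. Depth limits the wet-high folds, since 268 of those genes had under 3 counts in each Dry library.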
